A study of Carassius auratus with 9 samples.

Results

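The goldfish genes measured here include 2205 transcripts that match no gene of the reference annotation. They were chosen as every row whose ID carries the authors' own running number in place of a gene ID, and they make up 2205 of the 74297 rows measured. They are called by that number here, so that transcript 91 is the one the authors numbered 91. RNA was sequenced from the back skin of celestial goldfish (Carassius auratus) that were 4 months old and had brown, yellow or white skin. Each color had 3 biological replicates, called brown 1 to 3, yellow 1 to 3 and white 1 to 3. No treatment, genotype or sex is given in the labels, and the study set the 3 colors against each other to find genes related to skin pigment.

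A transcript without annotation is a stretch of RNA that an assembler built from aligned reads outside the genes already known. Such transcripts can be further exons or ends of a known gene, non-coding RNAs, copies of mobile elements, or protein-coding genes that the annotation missed. Goldfish descend from an ancestor whose genome doubled, and most of their genes lie in pairs on matching chromosomes, which makes missed copies and near-identical sequences common. How reads that fit several copies were counted is not stated, so values of near-identical copies are uncertain. Nor is the strand setting, and reads from a transcript and from an overlapping gene on the other strand then cannot be told apart.

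Each library had 13772601 to 17359648 reads on genes. Keratinocyte markers took 0.916% to 5.6% of reads and markers of dermal fibroblasts 1.79% to 13.8%. Skeletal muscle markers, 163 annotated genes, took 5.62%, 2.26% and 18.1% of reads in brown 1 to 3, 0.224%, 0.765% and 24% in yellow 1 to 3, and 1.99%, 11% and 30.7% in white 1 to 3. The 16 annotated pigment cell markers had 358, 1022 and 337 reads in brown 1 to 3 and 1094, 412 and 545 in yellow 1 to 3, against 35, 33 and 21 in white 1 to 3. In these bulk samples fewer cells of a type and less RNA per cell cannot be told apart.

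Most of the unannotated transcripts were rare. At least 1 read fell on 2160 of them in some library and none on 45, and 684 (31%) had a read in all 9 libraries. An FPKM, the number of fragments per kilobase of transcript scaled to the library, of at least 1 was reached in some library by 1843 (83.6%) and in all 9 by 242 (11%). The limit for testing, 3 or more libraries at 1 FPKM or above, was met by 946 (42.9%), and the other 1259 were not tested. The tested share was 46.8% among 53065 annotated protein-coding genes and 9.02% among 6931 annotated long non-coding RNA genes. The median of the mean FPKM was 0.638 over the unannotated transcripts, 0.62 over protein-coding genes and 0.0107 over long non-coding RNAs. Unannotated transcripts are listed because an assembler built them from reads. Annotated genes are listed with or without reads, and 2993 of the long non-coding RNAs had none. These shares and medians therefore do not show that unannotated transcripts are the better expressed kind. In length they were nearer the long non-coding RNAs, with a median of 559 bases, between 200 and 15819, against 731 bases for long non-coding RNAs and 2331 for protein-coding genes. The genomic span exceeded the transcript length in 1932 (87.6%), which therefore hold at least 1 intron, and 273 had a single exon.

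A few abundant transcripts held most of the reads. The most read transcript took 13% of all reads on unannotated transcripts, the first 5 took 43%, the first 10 took 51.7% and the first 100 took 76.3%. Of the 2205, 87 had a mean of at least 10 FPKM and 10 a mean of at least 100 FPKM.

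The 10 most abundant include conserved, highly expressed housekeeping and immune proteins. Transcript 1346, 477 bases on an unplaced scaffold and 1478 bases from a gene like proliferation-associated protein 2G4, carries the domain of ribosomal protein L41, a very small protein of the large ribosomal subunit. It had 2685, 2940 and 6702 FPKM in brown 1 to 3, 2348, 1672 and 5684 FPKM in yellow 1 to 3, and 2076, 2321 and 5507 FPKM in white 1 to 3. The third library was the highest in every color, the colors overlapped, and no annotated row was named for this ribosomal protein. Transcript 1537, 695 bases on an unplaced scaffold, matches ribosomal protein S30, which is made as a fusion with a ubiquitin-like protein. It had 693, 1182 and 1980 FPKM in brown, 639, 450 and 1602 FPKM in yellow, and 545, 498 and 1232 FPKM in white. Here too the third library was the highest in each color, and it held 62.1% of the FPKM summed over it and the 6 annotated rows of that fusion protein. The library size that the FPKM imply was 0.675, 0.762 and 0.689 times the counted reads in brown 3, yellow 3 and white 3. It was 1.08 to 1.39 times in the others, so a read gives a higher FPKM in the libraries numbered 3. In reads the third library was still the highest in each color for transcript 1346, with 28356, 21717 and 36511 reads in brown 1 to 3. The libraries numbered 3 were also those with the highest share of muscle markers in each color. The part of muscle or of this scaling in these levels was not tested.

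Transcript 44, 1094 bases on chromosome 1, matches thymosin beta-11, of a family of small peptides that bind actin monomers. It had 1381, 765 and 2128 FPKM in brown, 1623, 1285 and 721 FPKM in yellow, and 1751, 639 and 992 FPKM in white. It held 22.9% of the FPKM summed with 14 annotated thymosin beta rows. Transcript 599, 1068 bases on chromosome 21, matches the invariant chain, also called CD74, the chaperone that escorts MHC class II molecules in antigen-presenting cells. It had 852, 368 and 682 FPKM in brown, 1350, 1071 and 440 FPKM in yellow, and 1049, 966 and 578 FPKM in white, and no annotated row carried that name. The colors overlapped for both transcripts.

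Transcript 330, 823 bases on chromosome 10, carries the domain of chemokines, the small secreted proteins that attract leukocytes. It had 396, 153 and 415 FPKM in brown, 532, 437 and 143 FPKM in yellow, and 435, 207 and 190 FPKM in white. Transcripts 158 and 176 on chromosome 5 both match nuclear protein 2, a small transcription regulator known from humans, and both lie upstream of genes for vitamin K epoxide reductase complex subunit 1-like protein 1. They averaged 116 and 112 FPKM over the 9 libraries, and the colors overlapped for both. The other abundant transcripts carried no description. Transcript 854 on chromosome 28 averaged 383 FPKM, transcript 821 on chromosome 27 averaged 273 FPKM and transcript 359 on chromosome 12 averaged 170 FPKM. Transcript 359 had 244, 114 and 717 FPKM in brown, 148, 51.4 and 40.1 FPKM in yellow, and 130, 7.72 and 81.3 FPKM in white. None of these 10 passed the test in any comparison (limma adjusted p from 0.788 upward).

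All unannotated transcripts together took 1.48%, 1.34% and 1.03% of reads in brown 1 to 3, 1.48%, 1.33% and 0.943% in yellow 1 to 3, and 1.45%, 0.996% and 0.845% in white 1 to 3. In every color the share of counted reads was highest in the first library and lowest in the third. This order depended on the scaling. When reads were scaled by the library size that the FPKM imply (RPM), the third library was the highest in every color. The totals were then 11584, 11883 and 15226 RPM in brown 1 to 3. They were 11942, 10424 and 12376 RPM in yellow 1 to 3, and 10470, 9264 and 12267 RPM in white 1 to 3. The mean shares of counted reads were 1.28 ± 0.23% in brown, 1.25 ± 0.279% in yellow and 1.1 ± 0.318% in white (SD, n = 3 each). The differences did not exceed the spread between replicates when libraries were not matched by number (two-sided exact permutation test, p = 0.4 for brown against white, 0.7 for yellow against white and 0.9 for brown against yellow, where 0.1 is the smallest p that 3 against 3 allows). An FPKM of at least 1 was reached by 733, 1087 and 681 transcripts in brown 1 to 3, 697, 689 and 894 in yellow 1 to 3, and 681, 597 and 769 in white 1 to 3 (exact permutation p = 0.5, 0.4 and 0.7 in the same order). Brown 2 stood above the other libraries in this number, although it had the fewest counted reads. At least 1 read fell on 1697, 1461 and 1308 transcripts in brown, 1597, 1649 and 1223 in yellow, and 1602, 1474 and 1392 in white.

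**Figure D1:**
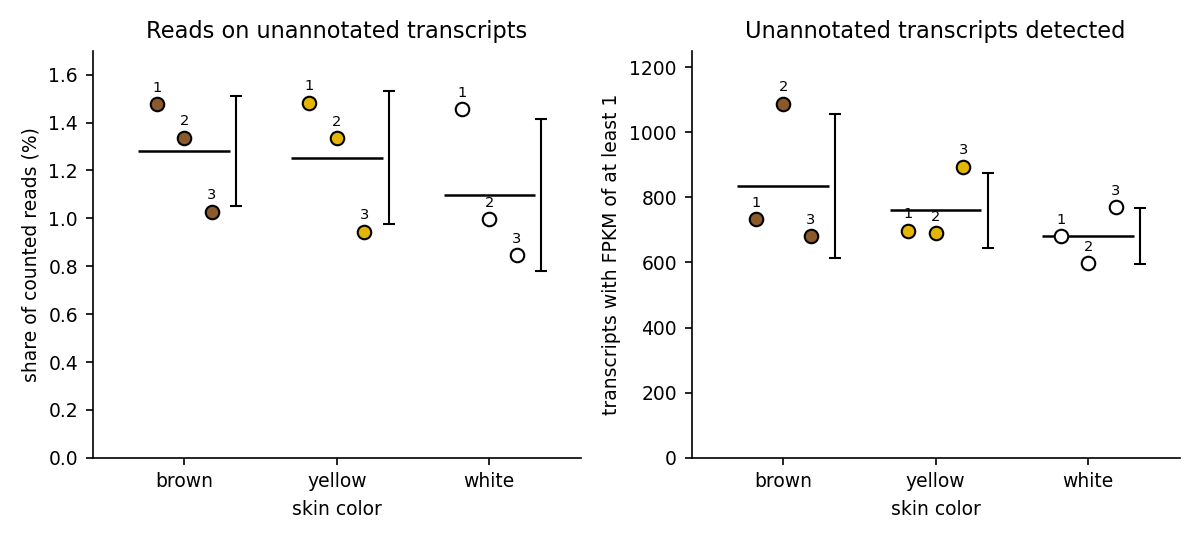
Left, the share of counted reads on the 2205 unannotated transcripts, in percent. Right, how many of them reached an FPKM of at least 1. Each point is 1 library, labelled with its replicate number, the line is the mean of the 3 libraries of a color and the bar beside it the SD. The colors overlap in both panels, and brown 2 has the highest number, 1087.

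Brown 2 held the highest value of 278 of the 946 tested transcripts, which is 29.4%. The same library held the highest value of 28.2% of the tested long non-coding RNAs and of 20.4% of all tested annotated genes.

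Nearly all unannotated transcripts lay outside annotated genes, which is how such transcripts are defined, and most lay within 5 kb of one. These distances were not compared with those of other positions between genes. Of the 2205, 1287 (58.4%) lay within 5 kb of an annotated gene, 738 (33.5%) between 5 and 50 kb away and 56 (2.54%) farther. A further 109 were on scaffolds with no annotated gene. The median distance was 2997 bases over the 2081 transcripts that lay apart from a gene on their sequence, and 144 lay within 0.1 kb. The nearest gene was protein-coding for 1507 of these 2081 and a long non-coding RNA for 393. Unplaced scaffolds held 863 (39.1%), compared with 32% of annotated genes. The tested share was lower farther from genes, being 49.7% within 5 kb, 35% between 5 and 50 kb, 23.2% farther away and 22.9% on scaffolds without genes.

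**Figure D2:**
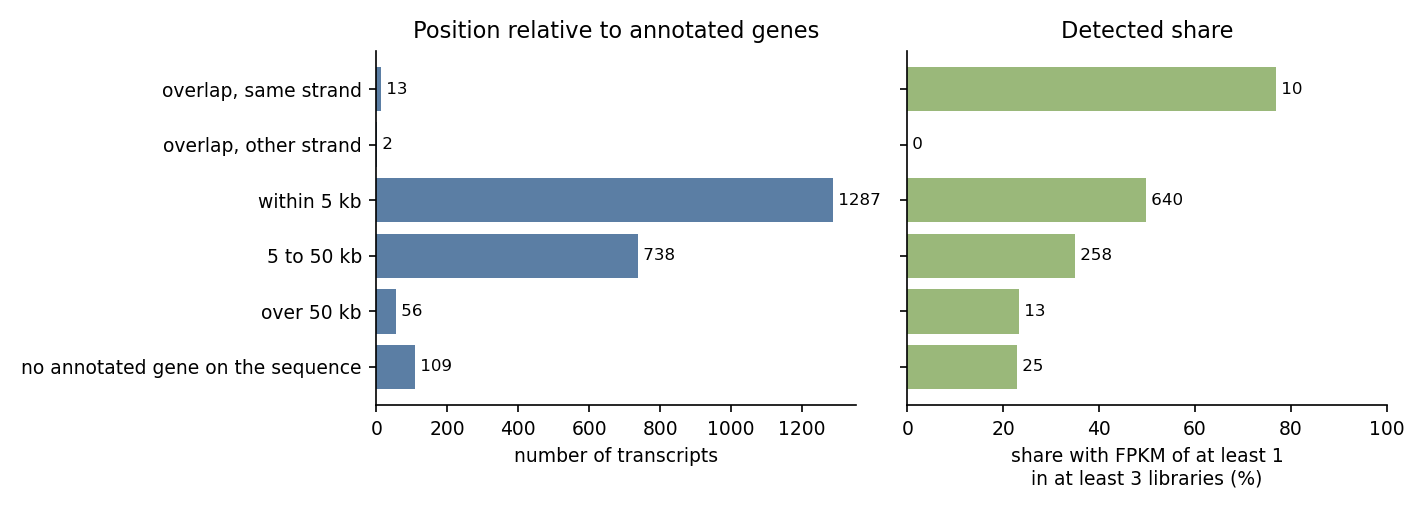
Left, the number of unannotated transcripts by position relative to annotated genes on the same sequence. Right, the share of each class that met the limit for testing, in percent, with the number of such transcripts at the bar's end. Most transcripts lie within 5 kb of a gene (1287), and the share is 49.7% there and 22.9% where the sequence has no annotated gene.

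All 4 arrangements with the nearest gene occurred. Among the 1287 transcripts within 5 kb, 375 lay downstream on the gene's strand, 351 upstream on its strand, 315 downstream on the other strand and 246 upstream on the other strand. The closest were those downstream on the other strand, with a median distance of 740 bases and 67 within 0.1 kb. An unannotated end of a gene would lie on the gene's strand, either downstream or upstream. Those downstream on the gene's strand had a median distance of 1451 bases, and 21 were within 0.1 kb. Those upstream on the gene's strand had a median distance of 1112 bases, and 34 were within 0.1 kb. Whether any of them are such ends was not tested.

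The levels of these transcripts followed those of their neighbours weakly, as those of adjacent genes did. Over the 367 pairs within 5 kb with both partners tested, the median Pearson correlation of log2(FPKM + 1) across the 9 libraries was 0.14 and the median Spearman correlation 0.1. For 9150 pairs of adjacent annotated genes within 5 kb the medians were 0.089 and 0.083. By arrangement the median Pearson correlation was 0.019 downstream on the gene's strand, 0.144 downstream on the other strand, 0.205 upstream on the gene's strand and 0.075 upstream on the other strand. A correlation above 0.8 was found in 27 of the 367 pairs (7.36%) and in 7.05% of the adjacent annotated pairs. The pairs share libraries and scaling, so these values describe the files and carry no test.

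Only 15 unannotated transcripts overlapped an annotated gene, 13 on its strand and 2 on the other. Most were long assemblies whose introns span whole genes, such as transcript 50 on chromosome 2, whose 1915 bases are spread over positions 562016 to 936878 across 8 genes on its strand and 9 on the other. Transcript 1 lies on the mitochondrial genome, positions 15 to 850, ahead of the gene for phenylalanine transfer RNA. It had 15.3, 44.6 and 16.2 FPKM in brown 1 to 3, 6.12, 6.57 and 21.6 FPKM in yellow 1 to 3, and 6.86, 5.6 and 24 FPKM in white 1 to 3. Brown 2 was the highest, and the colors overlapped.

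Chromosome 22 was the richest in unannotated transcripts. It held 93, or 6.71 for every 100 annotated genes, while the median over the 50 numbered chromosomes was 2.61 and the lowest value 1.19. Of the 93, 17 matched NLR or ribonuclease inhibitor-like proteins, described below.

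Brown against white asks which transcripts differ where dark pigment is present. Transcripts 91 and 58 were higher in brown, and no unannotated transcript was lower. That is 2 of the 946 tested at an adjusted p below 0.05 (limma, Benjamini-Hochberg over all 27420 genes tested), where 0.0365% of all genes tested passed, 10 in number. At an unadjusted p below 0.05 there were 102 unannotated transcripts (10.8%), 75 higher and 27 lower, against 5.72% of all genes, 3.51% higher and 2.21% lower. The annotated long non-coding RNAs had 10.4%. The count was 51 (6.14%, against 3.06% of all genes) without brown 2, 33 (3.7%, against 2.19%) without white 2 and 66 (6.98%, against 5% of all genes) by voom on the recovered reads.

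Transcript 91 was close to absent in white skin and present in both colored skins. It is 1207 bases long, with at least 1 intron, at positions 25874338 to 25878146 on the minus strand of chromosome 2. It lies 3895 bases downstream of LOC113038339, a gene like coiled-coil domain-containing protein 39, which in humans helps to assemble motile cilia. It had 15, 10.4 and 9.07 FPKM in brown 1 to 3, 55.1, 38.5 and 30.5 FPKM in yellow 1 to 3, and 0.0742, 0 and 0 FPKM in white 1 to 3. Every brown library was above every white library and below every yellow one. In brown against white the log2 change of FPKM + 1 was 3.58 ± 0.317 (SE, limma adjusted p = 0.0111). From 719 reads in brown and 2 in white the ratio was 378 (95% counting interval 104 to 3124). It was 246 without white 2 and at least 143-fold higher without white 1, which held both white reads (the floor is 3 reads for the group). The call was lost without brown 1, white 1, white 2 or white 3, with adjusted p of 0.0933, 0.0626, 0.109 and 0.0911. The neighbour LOC113038339 itself was near 0 in every library, at most 0.4 FPKM.

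Transcript 58 is a single exon of 481 bases at positions 19678391 to 19678871 on the plus strand of chromosome 2. It lies 107 bases upstream of LOC113119275, which encodes kelch-like protein 6, an adaptor of a ubiquitin ligase. It had 3.66, 6.04 and 4 FPKM in brown, 1.34, 0.864 and 0.723 FPKM in yellow, and 0.0931, 0 and 0.37 FPKM in white. The 3 colors did not overlap, with brown the highest and white the lowest. The log2 change was 2.26 ± 0.27 (SE, limma adjusted p = 0.0302). From 106 reads in brown and 3 in white the ratio was 37.1 (95% counting interval 12.4 to 183), and it was 24.2 without white 2 and 87.1 without white 3. The call was lost without any 1 of the brown or white libraries and without yellow 1 or yellow 2, with adjusted p between 0.0691 and 0.27. Kelch-like protein 6 itself averaged 0.131 ± 0.17 FPKM in brown, 0.88 ± 0.229 FPKM in yellow and 0.328 ± 0.301 FPKM in white (SD, n = 3 each). Its mean was thus highest in yellow and lowest in brown, and it did not reach the limit for testing.

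Transcripts 919 and 210 had the next smallest p. They lie on chromosomes 31 and 6, each downstream of a gene like the AP2-interacting clathrin-endocytosis protein. Transcript 919, 1922 bases at positions 16167067 to 16169744, lies 5580 bases from its gene, and transcript 210, 1627 bases at positions 15986834 to 15989887, lies 4283 bases from its own. Transcript 919 had 4.75, 18.2 and 5.74 FPKM in brown, 2.92, 2.14 and 3.03 FPKM in yellow, and 0.0699, 0.0869 and 0 FPKM in white. Transcript 210 had 1.97, 4.64 and 1.35 FPKM in brown, 2.69, 2.1 and 3.1 FPKM in yellow, and 0.0826, 0 and 0 FPKM in white. For both, every colored library was above every white one. The log2 changes were 3.11 ± 0.418 and 1.73 ± 0.332 (SE), and both missed the threshold (limma adjusted p = 0.0658 and 0.48). When brown 2 was left out, transcript 919 passed (log2 change 2.57, limma adjusted p = 0.0386). The gene beside transcript 210 did not differ beyond its spread, with 3.39 ± 1.83 FPKM in brown and 2.64 ± 0.792 FPKM in white (SD, n = 3 each).

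**Figure D3:**
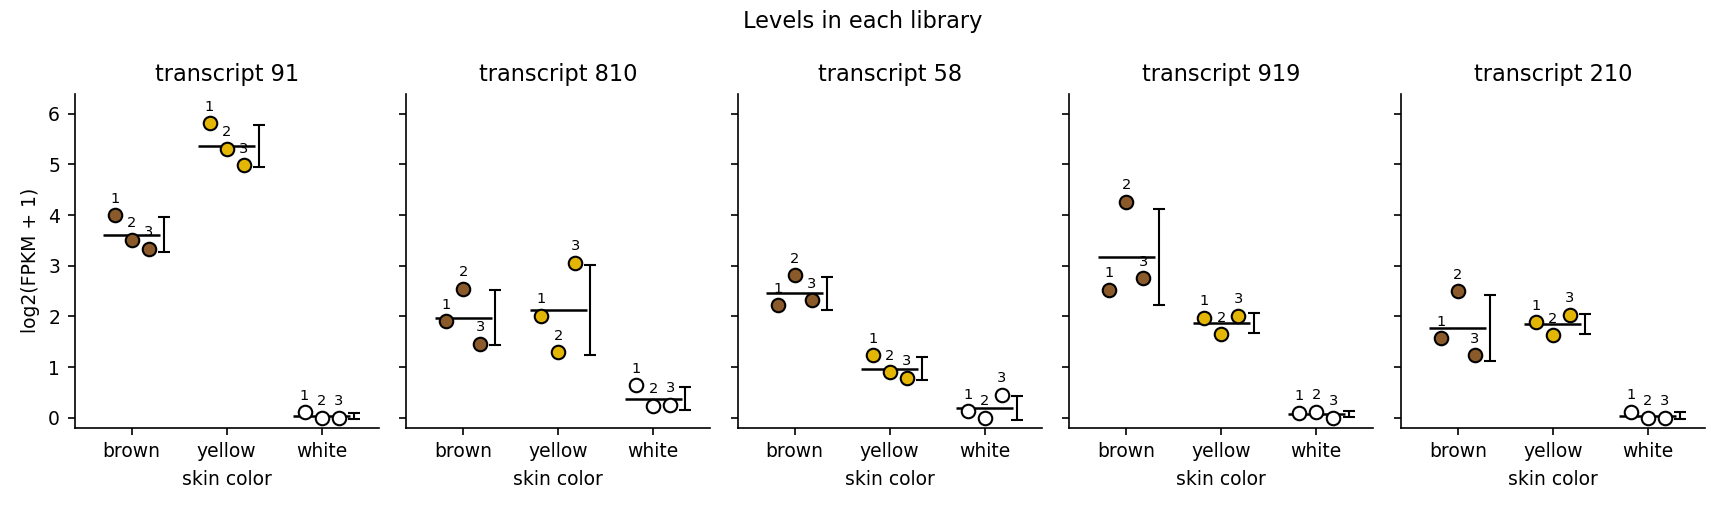
Levels of 5 unannotated transcripts on the log2(FPKM + 1) scale, by skin color. Each point is 1 library with its replicate number, the line is the mean and the bar the SD of 3 libraries. The white libraries lie at or near 0 for transcripts 91, 919 and 210, and yellow exceeds brown for transcript 91 while brown exceeds yellow for transcript 58.

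The other transcripts among the 10 smallest p had limma adjusted p of 0.788. Transcript 1158 on chromosome 43 had lower values in brown, with 0.104, 0 and 0 FPKM in brown and 3.29, 5.51 and 2.05 FPKM in white. Transcript 1514, on a scaffold without genes, matches CD276, an immune regulator of the B7 family. It had 5.19, 7.38 and 9.59 FPKM in brown and 2.63, 1.29 and 1.67 FPKM in white. Transcript 576 on chromosome 21 had 8.93, 7.07 and 21 FPKM in brown and 0.75, 0.529 and 5.37 FPKM in white. Transcripts 672, 2093 and 51, which have no description, had log2 changes of 1.36, 1.31 and 1.34. For all 6 the brown and white libraries did not overlap. Over the 946, 80 (8.46%) lay wholly higher in brown and 40 (4.23%) wholly lower, against 5.74% and 5.18% of all genes tested.

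The pigment cell markers differed between the same groups. The genes like DHICA oxidase, an enzyme of melanin synthesis, had 663 reads in brown, 27 in yellow and 3 in white. Genes like MART1, found in melanosomes, had 250 reads in brown, 857 in yellow and 4 in white, and genes like PMEL, the protein of melanosome fibres, had 427, 805 and 16 in the same order. The tyrosinase-like genes had 174, 200 and 31 reads and those like membrane-associated transporter protein 153, 160 and 31, with brown and yellow close to each other. The gene like P protein had 50, 2 and 4 reads, so it was not higher in yellow than in white. Of the 16 markers, 2 had no read in brown, 3 none in yellow and 2 none in white. The part of pigment cell numbers in the levels of transcripts 91, 58, 919 and 210 was not tested.

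Yellow against white asks the same of yellow pigment, and it uses the same white libraries as the comparison before. Transcript 91 was higher in yellow, the 1 unannotated transcript that passed, where 0.0438% of all genes tested passed (limma, adjusted p below 0.05). Its log2 change was 5.33 ± 0.317 (SE, limma adjusted p = 0.000488). From 2770 reads in yellow and 2 in white the ratio was 1339 (95% counting interval 370 to 11061), and it was 872 without white 2 and at least 506-fold higher without white 1. The call was kept whichever library was left out. At an unadjusted p below 0.05 there were 56 unannotated transcripts (5.92%), 46 higher and 10 lower, against 3.5% of all genes, 2.47% higher and 1.04% lower. The count was 26 (2.91%, against 1.94% of all genes) without white 2 and 33 (3.49%, against 3.06%) by voom.

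Transcript 810 lies on chromosome 27, at positions 25265428 to 25268220, 242 bases downstream of the other gene like coiled-coil domain-containing protein 39, LOC113046471. It had 3.05, 1.45 and 7.36 FPKM in yellow, 2.75, 4.84 and 1.76 FPKM in brown, and 0.559, 0.181 and 0.193 FPKM in white. Every colored library was above every white one, but the log2 changes of 1.75 ± 0.449 in yellow and 1.59 ± 0.449 in brown did not pass (SE, limma adjusted p = 0.868 and 0.788). Transcript 824, farther along on the other strand at positions 25268584 to 25270647, had 13.4, 6.67 and 0 FPKM in yellow, 4.29, 0.274 and 0.248 FPKM in brown, with white at 0 reads. These transcripts beside both copies of this gene, on chromosomes 2 and 27, were low or absent in white. Transcript 824 was also at 0 FPKM in yellow 3 and at most 0.274 FPKM in brown 2 and brown 3. Transcripts 91 and 810 were named for their small p against white, and transcript 824 was picked after its values were seen. This likeness therefore carries no test. Transcript 91 lies on the strand opposite its gene, and transcript 810 on the strand of its own. LOC113046471 itself was at most 0.06 FPKM.

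Among the other small p values in yellow against white, transcript 2166 on an unplaced scaffold had 8.57, 2.91 and 19 FPKM in yellow, 2.02, 6.11 and 1.89 FPKM in brown, and 0, 0.0924 and 0.443 FPKM in white (log2 change 2.96 ± 0.57 in yellow against white, limma adjusted p = 0.379). Transcript 487 on chromosome 16 carries the domain of DAP10, an adaptor of activating receptors on natural killer and T cells. It had 10.9, 8.7 and 9.03 FPKM in yellow, 9.38, 13.2 and 5.78 FPKM in brown, and 3.79, 3.5 and 4.23 FPKM in white, with no overlap between colored and white libraries (yellow against white log2 change 1.12, limma adjusted p = 1.00). Transcript 5 on chromosome 1, of the ubiquitin family, had 55.8, 35.4 and 50.4 FPKM in yellow and 27.8, 9.46 and 8.89 FPKM in white. Over the 946, 69 (7.29%) lay wholly higher in yellow and 22 (2.33%) wholly lower, against 5.09% and 4.54% of all genes tested.

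Brown against yellow gave no call among the unannotated transcripts, and 0% of all genes tested passed (limma). At an unadjusted p below 0.05 there were 38 (4.02%), 23 higher and 15 lower, against 1.67% of all genes, 0.996% higher and 0.671% lower. The voom fit on the recovered reads called 0, with 17 (1.8%, against 1.1% of all genes) at an unadjusted p below 0.05. Without yellow 3 the limma count was 78 (9.21%, against 6.1% of all genes), and without brown 1 it was 57 (6.43%, against 3.16%). Transcript 1436, on an unplaced scaffold, had the smallest p, with 0.865, 0 and 0.419 FPKM in brown and 2.85, 4.86 and 4.57 FPKM in yellow (log2 change -1.86 ± 0.329, limma adjusted p = 1.00). Transcript 91 had a log2 change of -1.75 ± 0.317 and transcript 58 one of 1.48 ± 0.27 (limma adjusted p = 1.00 for both). Transcript 1092 on chromosome 40 carries the domain of interleukin 15, a cytokine of lymphocytes. It had 3.47, 4.34 and 3.42 FPKM in brown and 1.99, 1.76 and 2 FPKM in yellow, with no overlap (log2 change 0.70 ± 0.221, limma adjusted p = 1.00). Over the 946, 40 (4.23%) lay wholly higher in brown and 19 (2.01%) wholly lower, against 2.64% and 2.57% of all genes tested.

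As a body, the unannotated transcripts leaned toward higher values in the colored skins. In brown against white their median log2 change was 0.25, compared with -0.02 over all genes tested, and 608 (64.3%) were above 0 against 48.4% of all genes. In yellow against white the median was 0.12 against -0.03, with 59.7% above 0 against 47% of all genes. In brown against yellow it was 0.11 against 0.01, with 58.6% above 0 against 50.9% of all genes. The annotated long non-coding RNAs had medians of 0.23, 0.08 and 0.12 in the same order, with 65.1%, 54.2% and 60.2% above 0. A transcript low in white can meet the limit for testing through brown or yellow libraries alone. With no filter beyond 1 nonzero value, 2160 unannotated transcripts had medians of 0.14, 0.06 and 0.05 in the same order. Then 59.8%, 55.9% and 55.1% were above 0, against 44.3%, 44.4% and 50.4% of all genes. Dropping the filter does not remove the selection by which unannotated transcripts are listed, since an assembler built them from reads. With the filter kept and brown 2 left out, their median was 0.14 in brown against white, with 59.3% above 0. In brown against yellow it was -0.01, with 48.9% above 0 against 51.7% of all genes. Without white 2 it was 0.16 in brown against white and 0.05 in yellow against white. In yellow against white it was 0.18 without yellow 2 and 0.19 without white 3, and in brown against yellow it was 0.04 without yellow 2. On TPM, which shifts the median gene by -0.20 in brown against white and -0.22 in brown against yellow, their medians were 0.11 and -0.09, with 53.8% and 44.3% above 0 against 35.8% and 29.4% of all genes.

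**Figure D4:**
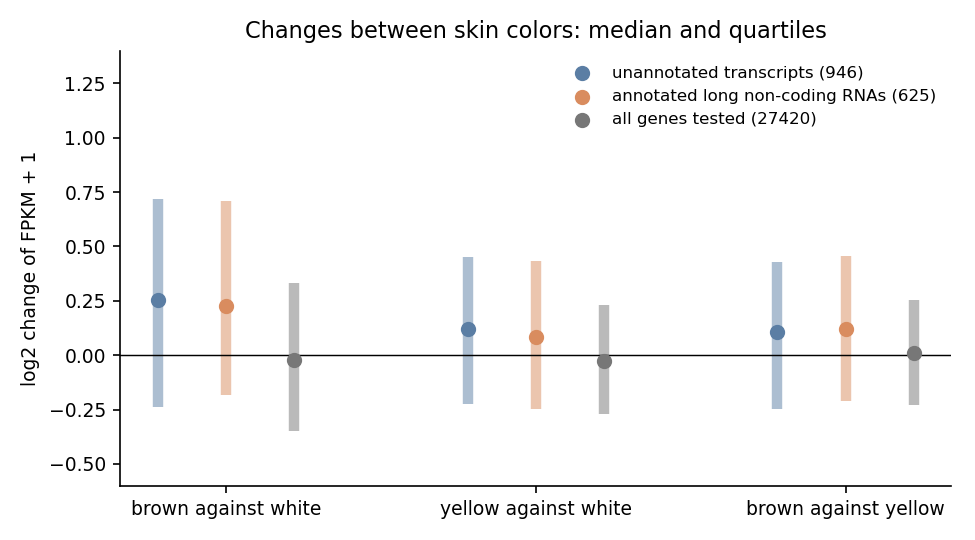
Median (point) and quartiles (bar) of the log2 change of FPKM + 1 in each comparison, for 946 unannotated transcripts, 625 annotated long non-coding RNAs and all 27420 genes tested. The medians of the unannotated transcripts are 0.25, 0.12 and 0.11 and lie close to those of the long non-coding RNAs.

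Of the 2205, 438 (19.9%) carried a protein match or domain in the authors' description, and these held 55.1% of the reads on unannotated transcripts. The other 1767 had none. The tested share was 232 of 438 with a description and 714 of 1767 without. All transcripts that passed a test, 91 and 58, were without a description.

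The list of immune proteins was the longest, with 103 transcripts, 44 of them tested. Here and in the lists and families below, a transcript low in white can meet the limit for testing through brown or yellow libraries alone. Counts above 0 cover tested members only. Over all 946 tested unannotated transcripts 64.3%, 59.7% and 58.6% were above 0 in brown against white, yellow against white and brown against yellow. In brown against white 32 of the 44 had a log2 change above 0 and the median was 0.47, in yellow against white 31 and 0.14, and in brown against yellow 27 and 0.27, where 48.4%, 47% and 50.9% of all genes tested were above 0. Without brown 2 it was 22 of 35 with a median of 0.19 in brown against white, and 20 of 35 with a median of 0.04 in brown against yellow. In brown against white the median was also 0.30 without white 2 and 0.76 without brown 3. In yellow against white it was 0.28 without yellow 3. In brown against yellow it was 0.11 without yellow 1 and 0.16 without yellow 2. None passed (limma). At an unadjusted p below 0.05 there were 8 higher and 1 lower in brown against white, where 3.51% and 2.21% of all genes were. There were 1 and 1 in yellow against white, where 2.47% and 1.04% of all genes were, and 2 and 1 in brown against yellow, where 0.996% and 0.671% were. Summed over the 103, brown libraries had 798 to 1496 RPM (reads scaled by the library size that the deposited FPKM imply), yellow libraries 814 to 2107 and white libraries 960 to 1691, so that the colors overlapped in the total.

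A family formed after the descriptions were read was that of NLR proteins, cytosolic sensors of microbes of which fish genomes hold very large numbers, together with the ribonuclease inhibitor-like proteins that share their leucine-rich repeats. Lists and families were not exclusive. NLR members whose match names NACHT or PYD, and the immunoglobulin and chemokine groups below, can also count in the immune list. The NLR family had 79 members with a median length of 532 bases, 57 on unplaced scaffolds and 17 on chromosome 22, and 33 were tested. Summed over the 79 they had 73.5, 161 and 76.4 RPM in brown 1 to 3, 27.1, 72.9 and 103 in yellow 1 to 3, and 31.8, 25.1 and 54 in white 1 to 3. The brown libraries lay above the white ones, and yellow overlapped both. A member low in white can meet the limit for testing through brown or yellow libraries alone, so counts over the 33 carry that limit. In brown against white 28 of the 33 had a log2 change above 0, with a median of 0.92. Of all genes tested 48.4% were above 0, and of the tested unannotated transcripts 64.3%. At an unadjusted p below 0.05 there were 8 higher and 0 lower, where 3.51% and 2.21% of all genes were. That count was 2 higher without brown 2 and 2 higher without white 2, and 3 higher without brown 3 and 5 higher without white 1. The share of all genes, higher and lower together, was then 3.06%, 2.19%, 5.72% and 6.25% in the same order, against 5.72% with all libraries. Without brown 2, 21 of 28 were above 0, with a median of 0.66. In yellow against white 25 of 33 were above 0, with a median of 0.32, against 47% of all genes, and the median was 0.16 without white 2, 0.61 without white 3 and 0.66 without yellow 1.

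Of annotated genes of the same names the files hold 302, 155 unplaced and 25 on chromosome 22, and 98 were tested. In brown against white 58 of the 98 had a log2 change above 0, with a median of 0.15. In yellow against white 72 of the 98 were above 0, with a median of 0.13. They had 1070, 1533 and 795 RPM in brown, 1139, 1221 and 1059 in yellow, and 1202, 837 and 885 in white, and the colors overlapped. Immune cell markers took 0.035% to 0.094% of reads in brown and 0.025% to 0.1% in white. The difference between the unannotated and the annotated members was not tested.

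**Figure D5:**
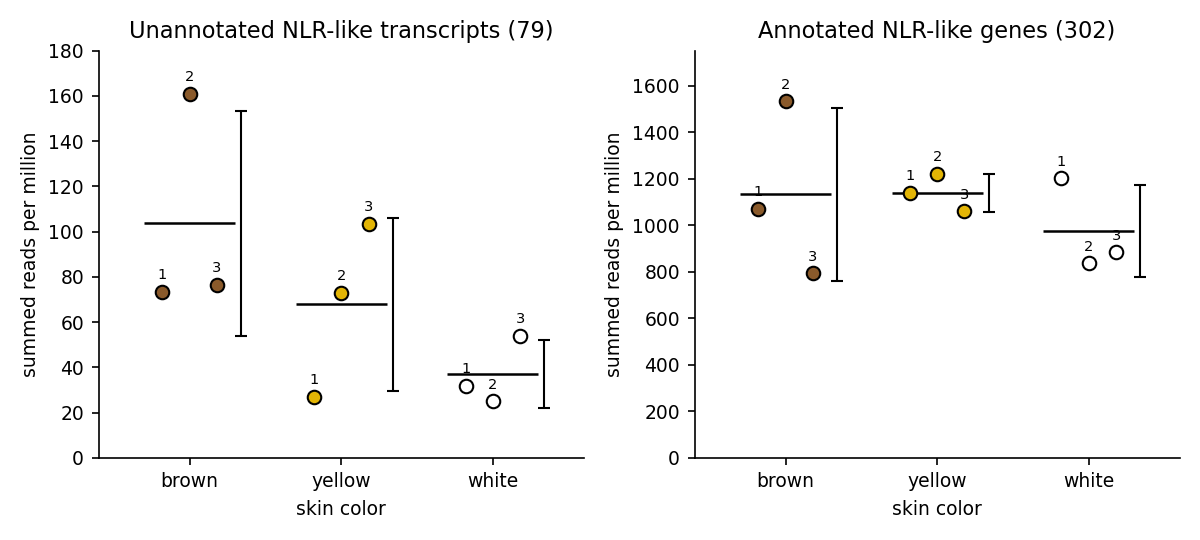
Summed RPM, reads scaled by the library size that the FPKM imply, on NLR and ribonuclease inhibitor-like sequences, left for the 79 unannotated transcripts and right for the 302 annotated genes. Each point is 1 library with its replicate number, the line is the mean and the bar the SD of 3 libraries. On the left every brown library is above every white one, and on the right the colors overlap.

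The remaining groups were smaller. Immunoglobulin chains, the antibody proteins, had 28 members and 4 tested, all 4 above 0 in brown and in yellow against white, where 48.4% and 47% of all genes were. Without brown 2 it was 2 of 3 in brown against white, with a median of 0.32 in place of 0.83. Their sum was 14.7, 43.3 and 4.1 RPM in brown, 26.7, 15.5 and 42.7 in yellow, and 9, 8 and 5.6 in white, so that yellow lay above white and brown overlapped it. The 9 transcripts with a chemokine domain took 2.83% of reads on unannotated transcripts, and 4 of the 7 tested were above 0 in brown against white, a count of 2 of 6 without brown 1. The list matched by words for mobile elements, sequences that move or copy themselves within the genome, had 54 members. Their median length was 2569 bases, long for this set. Of the 23 tested, 12 were above 0 in brown against white and 11 in yellow against white. The median in brown against white was 0.03, and it lay between -0.05 without brown 2 and 0.28 without white 1. The 2 most abundant tested members of this list were transcripts 1238 and 14, with means of 6.34 and 5.39 FPKM. The only match of transcript 1238 is a THAP domain. Transcript 14 carries an RNase H domain and a p53 tetramerisation motif, and 6 transcripts in all matched p53, a tumor suppressor.

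The list matched by words for signalling, such as kinase and receptor, had 46 members and 25 tested. In brown against white 16 of the 25 were above 0, where 48.4% of all genes tested and 64.3% of the tested unannotated transcripts were. Ribosomal and histone proteins had 8 members and took 18.4% of the reads, and all 6 tested were above 0 in brown against white, but 3 of 6 without brown 3. The zinc finger, muscle and cytoskeleton, and keratin and matrix lists had 5, 2 and 3 members, of which 3, 2 and 2 were tested and none passed. Their most abundant tested members were transcripts 831, 2074 and 806, with means of 1.55, 7.11 and 12.1 FPKM. Transcript 2074 matches fast skeletal myosin heavy chain and had 2.23, 5.42 and 0 FPKM in brown, 0, 0.798 and 38.6 FPKM in yellow, and 0.111, 1.65 and 15.2 FPKM in white. Transcript 1415, the most abundant of the signalling list, matches phosphofructokinase, an enzyme of glycolysis. It had 12.8, 26.5 and 73.8 FPKM in brown, 0.826, 0.548 and 134 FPKM in yellow, and 2.34, 27.9 and 224 FPKM in white. Its highest library in each color was the third, as for the muscle markers, and the link was not tested.

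Transcripts 2020, 2021, 2022 and 2023 match TAR1, a protein that in yeast is encoded opposite the ribosomal RNA gene. Transcripts 2020 and 2021, of 9143 and 8895 bases, lie on opposite strands of 1 scaffold that has no annotated gene. Transcript 2020 had 1.05, 3.62 and 5.81 FPKM in brown, 1.36, 1.73 and 4.82 FPKM in yellow, and 0.715, 1.1 and 1.82 FPKM in white. Transcript 2021 had 0.731, 6.04 and 3.17 FPKM in brown, 0.503, 0.555 and 5.78 FPKM in yellow, and 0.211, 0.269 and 2.03 FPKM in white. The other pair was not tested. In transcripts 2020 and 2021 the third yellow and white libraries were the highest of their color, and the colors overlapped.

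Unannotated transcripts also came in pairs beside genes of the same product. Here a pair shares the product of a protein-coding gene that flanks it on either side, which need not be the nearest gene, and the product has at most 6 annotated copies. Most such pairs, 399, lay on the same sequence, and 142 were of the unplaced or linkage group kind. On chromosomes whose numbers differ by 25, the matching chromosomes of the doubled genome, there were 80, and 36 on other pairs of numbered chromosomes. Of these 80, 32 had both partners tested and 10 carried the same description on both sides. Across the 9 libraries the median Pearson correlation over the 32 was 0.57 and the median Spearman correlation 0.51, with 28 of 32 Pearson values above 0. Over the 11 tested pairs on other chromosomes these medians were 0.63 and 0.67. They were 0.45 and 0.37 over 74 tested pairs on the same sequence, and 0.27 and 0.25 over 56 of the unplaced or linkage group kind. Pairs share the libraries, and near-identical copies can share reads, so these values carry no test.

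The copies named next all carry a description and were chosen after their values were seen. They show how far these copies differ in level, but not what kind of genes the pairs hold. Transcripts 170 and 897, on chromosomes 5 and 30, carry the domain of interferon-induced transmembrane proteins, which block the entry of viruses. Transcript 170 had 18.7, 16.3 and 12.7 FPKM in brown, 25.3, 20.6 and 18.9 FPKM in yellow, and 21.5, 38 and 19.7 FPKM in white. Transcript 897 had 33.8, 1.85 and 15 FPKM in brown, 30.3, 45.2 and 10.2 FPKM in yellow, and 70.4, 82.7 and 28.8 FPKM in white, and it varied more than its partner. Brown was below white in every library for transcript 170, while brown and white overlapped for transcript 897.

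The chemokine-domain transcripts 265 and 976, on chromosomes 8 and 33, lie beside genes for vasotocin-neurophysin. Transcript 265 had 26.1, 21.5 and 40 FPKM in brown, 20.1, 15.4 and 20 FPKM in yellow, and 7.06, 1.56 and 22 FPKM in white. Transcript 976 had 3.98, 4.27 and 26.3 FPKM in brown, 3.06, 2.36 and 1.41 FPKM in yellow, and 4.16, 0.582 and 2.27 FPKM in white. Transcript 265 was the more abundant in each of the 9 libraries. The interleukin 15 transcripts 463 and 1092, on chromosomes 15 and 40, averaged 6.29 and 2.55 FPKM. Transcript 463 had 7.99, 6.49 and 4.47 FPKM in brown, 5.96, 5.96 and 5.49 FPKM in yellow, and 6.91, 6.59 and 6.75 FPKM in white, and the colors overlapped.

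Transcripts 519 and 1148, on chromosomes 18 and 43, carry the domain of the calcitonin family of peptide hormones and averaged 15.9 and 4.05 FPKM. Transcripts 162, 887, 890 and 905, on chromosomes 5 and 30, match ISCU, the scaffold on which mitochondria build iron-sulfur clusters. They averaged 6.54, 2.11, 2.01 and 12.9 FPKM, so copies of 1 protein differed in level although none passed a test between colors. Transcript 887 had no read in brown 3, yellow 3, white 2 and white 3 and between 2.24 and 5.44 FPKM in the other libraries.

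Few unannotated transcripts were limited to 1 color. Transcripts 522 and 1239 had reads in all 3 brown libraries and in no other, 14 and 13 reads in all. Transcript 522 had 0.132, 0.662 and 0.641 FPKM in brown, and transcript 1239 had 0.179, 2.55 and 0.692 FPKM. In white the same held for transcript 1961, with 3 reads, and in yellow for none. These are 0.0907%, 0.0454% and 0% of the 2205, while 0.0153%, 0.0624% and 0.00971% of annotated genes were limited to brown, white and yellow in that way. Conversely, transcripts 1034, 1327 and 1345 had reads in all 6 colored libraries and none in white. These are 0.136% of the 2205, and 0.0277% of annotated genes were absent from white in that way. Transcript 1327 had 0.0484, 0.208 and 3.47 FPKM in brown and 0.959, 0.841 and 1.12 FPKM in yellow. Transcript 1035 on chromosome 36 had no read in yellow and reads in every brown and white library, with 0.108 to 0.503 FPKM in brown and 0.11 to 0.345 FPKM in white. It is 0.0454% of the 2205, against 0.0111% of annotated genes. None was absent from brown alone, against 0.0264% of annotated genes. None of these 7 reached the limit for testing.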

How the data were processed

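RNA-seq libraries of back skin, 9 in all with 3 of each color and labelled as biological replicates, were analysed. Whether each library came from 1 fish or from a pool is not given in the labels. The authors deposited 1 FPKM value per row and library, with position, length and description. The submitters' processing notes name HISAT2 and StringTie, without versions. Strand setting and multi-mapping rule: not given in the sources used here. Multiplying FPKM by length gave whole reads for 100% of values (within 0.01 reads), so reads per library were recovered. The FPKM denominator was between 0.675 and 1.39 times the counted reads, which scales libraries differently from their totals. It was lowest, by this ratio, in the libraries numbered 3. Totals of 13772601 to 17359648 reads set the precision, and counting intervals and floors (3 reads) cover counting error only.

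Values were tested as log2(FPKM + 1) with limma 3.58.1 (R 4.3.3, trend) over all 9 libraries, for rows with 1 FPKM or more in 3 or more libraries, with Benjamini-Hochberg adjustment at 0.05. Fold changes on this scale understate those of low transcripts. Library totals were compared by exact permutation in SciPy 1.17.1, with pandas 2.3.3, matplotlib 3.10.9 and Python 3.11.15. Of 72092 annotated IDs, 72068 matched the RefSeq gene table and 72059 had the same start. The alternatives were other pseudocounts, filters and scalings, voom on recovered reads, a muscle covariate, a replicate block and leaving out libraries.

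Transcripts named were drawn from those with an adjusted p below 0.05 or the smallest p in each comparison until 10 were reached. They were also drawn from the 10 most abundant, those limited to a color and the 2 most abundant of each description list. Not every transcript with a small p, and not every one of the 2 per list, is named in the text. Others named (overlaps, copies, TAR1, mitochondrial) were chosen after their values were seen. The members and lists were chosen with earlier results of these data known. List patterns that matched inside longer words were later matched from word starts, and families were formed after the descriptions were read.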

Additional observations from a re-analysis of the deposited data

How the results depend on the processing

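The count of unannotated transcripts called in brown against white, 2 as reported, was 1 with no filter, 1 with a filter of 5 FPKM, 1 with the replicate block, 0 on TPM, 0 by voom on recovered reads, 3 with a pseudocount of 0.5, 2 with one of 0.1, 2 with median-of-ratios scaling, 2 with a muscle covariate and 0 without the 3 libraries numbered 3. It ranged from 0 to 2 when each library was left out. In yellow against white the count of 1 was 0 by voom and 1 with each library left out. In brown against yellow it was 0 under every alternative run. Transcript 91 in brown against white had an adjusted p of 0.103 on TPM and 0.777 by voom. Deviations from the color mean correlated above 0.1 in 7 of 9 same-numbered pairs of libraries (0.19 to 0.77), but at -0.30 for brown 2 with yellow 2 and -0.24 for brown 2 with white 2, and brown 1 correlated more with yellow 2 (0.61) than with yellow 1 (0.46). Since not every pair exceeded 0.1 and the labels name no shared animal or batch, the numbers were not used as pairs. With the replicate block transcript 58 lost its call (limma adjusted p = 0.134) and transcript 91 kept it (0.0306).

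The difference in read share of brown minus yellow, 0.0267 percentage points, was -0.11 on TPM and -0.00256 without the most abundant transcript, and ranged from -0.128 to 0.153 with libraries left out. Within same numbers the share was higher in 3 of 3 pairs for brown minus white (0.0224, 0.34 and 0.182) and for yellow minus white (0.0274, 0.338 and 0.0981), with the replicate block p = 0.25 by exact sign flips, the smallest that 3 pairs allow. With libraries left out it ranged from 0.0545 to 0.359 for brown minus white and from 0.0278 to 0.333 for yellow minus white. The difference in the number of transcripts detected was 151 for brown minus white and -0.667 when at least 1 read counted as detection. For brown minus yellow it was 73.7, and -1 by reads and -2.28 at equal depth. With libraries left out these differences ranged from 24.7 to 228 for brown minus white, 10.7 to 121 for yellow minus white and -53 to 150 for brown minus yellow. With limits of 1 and 10 kb, 583 and 1617 transcripts lay near a gene. Of 548 values of named log2 changes, 523 kept direction and side of the threshold, 22 lost and 3 gained a call, and 0 reversed. Most of the named log2 changes were not called in the results above, so they had no call to lose. The 22 losses therefore all fell on the few called changes, in brown against white and yellow against white. The 523 do not show how often a call was kept. Causes of these changes were not tested. At these depths 1 read is close to the level of the rarest transcripts.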
